A study of Mus musculus with 21 samples.

Results

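The genes described here are the heat shock proteins and DnaJ chaperones of the colon of germ-free mice. All non-control array probes were taken whose gene name in the scanner files began with Hspa, Hspb, Hspd, Hspe, Hsph, Hsp90, Dnaja, Dnajb or Dnajc followed by a digit or the letter a, and each gene was read by its brightest probe. This gave 71 genes with 109 probes among the 34836 gene names of the array design used at day 7, and 72 genes with 156 probes among the 37074 gene names of the design used at day 0. All 71 genes of the first design are on the second, and the gene found only on the day 0 design is Hspa1b. The rule on names also took in Hspbap1, which encodes a protein associated with HSPB1 and no chaperone. The question put to them was whether these genes differed between the genotype labels before and during colitis, and whether the direction of the difference was the same at both times.

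The samples were total RNA of whole colon tissue from male C57BL/6J mice raised without microbes. By their labels they came from GF Card9-/- mice and from GF WT mice. Card9 encodes an adaptor protein that passes signals from fungal receptors of myeloid cells. At day 0, before colitis, the label GF Card9-/- is on 7 arrays and GF WT on 6. At day 7, after 2% dextran sulfate sodium (DSS, which injures the colon epithelium) in the drinking water, 4 arrays carry each label. The labels give no age. All mice of this comparison were germ-free, so no group with a microbiota was on the arrays.

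Heat shock proteins hold other proteins in a foldable state, and they are named for their size. HSP70 proteins (Hspa genes) bind and release unfolded chains in a cycle driven by ATP, J proteins (Dnaja, Dnajb and Dnajc genes) deliver clients and start the hydrolysis of ATP, and HSP110 proteins (Hsph1, Hspa4, Hspa4l) exchange the nucleotide. HSP90 proteins act later on receptors and kinases, the chaperonin of Hspd1 and Hspe1 folds proteins inside mitochondria, and small heat shock proteins (Hspb genes) hold damaged proteins without using ATP. Heat, oxidants and other sources of damaged protein raise many of these genes through heat shock factor 1, whereas the chaperones of the endoplasmic reticulum (ER) follow the unfolded protein response. Several small heat shock proteins are abundant in muscle.

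Values are log2 array signals after quantile normalization within a day, and a difference is always the mean under the GF Card9-/- label minus the mean under the GF WT label. Differences were tested with limma, with Benjamini-Hochberg adjustment over all probes tested on the day, and a gene was called at an adjusted p under 0.05. The labels number the samples without saying that each is another mouse, so the p-values measure the spread between these samples. In bulk tissue, fewer cells of a type and less RNA per cell cannot be told apart. Probes differ in brightness, so no gene's level was set against another's. The days were measured on different designs, and day and design cannot be told apart, so levels were not compared between the days.

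The Card9 signal ran against the labels. At day 0 its brightest probe read 8.71 to 9.24 on the arrays labelled GF Card9-/- and 2.30 to 2.33 on those labelled GF WT, where no array was well above background. Its other day 0 probe ran the same way, with 6.75 to 7.51 against 2.85 to 3.77, and again no array labelled GF WT was well above background. At day 7 the arrays labelled GF Card9-/- read 7.93 to 8.57, GF WT 4, 5 and 6 read 2.38 to 2.41, and GF WT 1 read 7.85. Where the probes lie relative to the deleted part of the gene was not known here. The direction of every difference below is therefore that of the labels. With 4 arrays of each label at day 7, values there moved by much when single arrays were left out, GF WT 1 or another, and are given so where the results turn on them. Between 54.5% and 64.9% of spots were well above background at day 0 and between 42.2% and 57.1% at day 7, and no spot was saturated. The colon was recognizable by its colonocyte and goblet cell markers, of which 16 were measured at day 0 and 15 at day 7, all well above background. RNA of pancreatic enzyme genes was high on GF Card9-/- 7 at day 0 and on GF Card9-/- 2.1 and 6 at day 7.

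Of the 72 genes of the day 0 design, 70 passed the detection filter (not Dnajb13 and Dnajb8) and 63 were well above background on all 13 arrays, while 4 were so on none. Of the 71 genes of the day 7 design, 67 passed (not Dnajb13, Dnajc6, Hspa12a and Hspb3) and 57 were well above background on all 8 arrays, while 7 were so on none.

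Stretches of promoter are shown for the genes with the larger day 0 differences and for Hspe1, because they carry the letters to which heat shock factors are known to bind, inverted repeats of GAA. The letters searched were GAANNTTC and TTCNNGAA, each of which is its own reverse complement, so that a match counts on both strands. A longer run of 3 units, GAANNTTCNNGAA or TTCNNGAANNTTC, contains one of each. The sequences are RefSeq's on the GRCm38.p6 build, written along the strand of the gene, with the bases of the repeats in capitals.
Hspa1a, chr17:34972207-34972306, minus strand, 150 to 51 bases upstream of the start: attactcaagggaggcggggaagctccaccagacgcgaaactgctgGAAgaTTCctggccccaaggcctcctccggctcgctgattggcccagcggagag
Hsph1, chr5:149636316-149636415, minus strand, 100 to 1 bases upstream: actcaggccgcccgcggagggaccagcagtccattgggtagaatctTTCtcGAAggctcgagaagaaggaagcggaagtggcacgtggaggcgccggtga
Dnaja1, chr4:40722298-40722397, plus strand, 170 to 71 bases upstream: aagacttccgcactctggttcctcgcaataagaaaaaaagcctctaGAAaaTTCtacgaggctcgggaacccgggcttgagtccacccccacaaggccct
Hspe1, chr1:55088018-55088117, plus strand, 130 to 31 bases upstream: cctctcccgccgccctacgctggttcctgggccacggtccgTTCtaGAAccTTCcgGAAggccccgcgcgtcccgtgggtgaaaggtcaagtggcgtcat

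The Hspe1 stretch holds 3 overlapping pairs that form 2 overlapping runs of 3 units. Hspd1 is transcribed the other way from the same stretch of DNA, its window overlapping that of Hspe1 by 285 of 300 bases, so both genes share these letters. Over the 250 bases upstream, Hspa1a and Hspa1b were identical at 247 of 250 bases, and the stretch printed for Hspa1a reads the same in Hspa1b. RefSeq promoters were at hand for 58 of the 72 genes, among which Hsp90aa1, Hsp90ab1 and Hspa8 are missing. A pair stood in the promoters of 14 of the 58 (24.1%), against 14.5% of 27025 genes, and a run of 3 units in 3 of them (5.17%), against 0.514%. These 3 were Dnajb6, Hspd1 and Hspe1. A gene counted if any of its start sites held the letters. The letters shared by Hspd1 and Hspe1, and those alike in Hspa1a and Hspa1b, are counted for both genes in these shares. Of the 10 genes with a promoter on the list of 13 genes inducible through heat shock factor 1, 7 held a pair (70%). Dnajb1 was among those without one in this window.

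At day 0 no member of the family was called (0 of 70), where 0.0253% of all 47410 probes were, 12 in number, and the lowest adjusted p of a member was 0.085. The members leaned towards higher signal on the arrays labelled GF Card9-/-, with 49 higher and 21 lower (70% higher, against 55.5% of 25667 named genes), and their median difference was 0.06, against 0.01 over the named genes. Under 4 other ways of preparing the signals 47 to 51 were higher. In one of them, with low signals raised to a floor, the members' median was 0.07 and that of all probes 0.11, so the members then did not lie above the probes as a whole. An unadjusted p under 0.05 with a higher signal was found for 15 of 70 (21.4%), where 4.26% of the named genes reached it, and for 1 of 70 (1.43%) with a lower signal, against 2.08%. All 15 were higher on each of the 4 slides, every one of which holds both genotypes. For 4 of 70 (5.71%) every array labelled GF Card9-/- lay above every array labelled GF WT, against 0.401% of the named genes. These 4 were Hspa1a, Hsph1, Dnaja1 and Dnajb1. The number of 15 fell to 8 without the slide of GF WT 6, which also holds GF Card9-/- 5 and 6, and to 6 when GF Card9-/- 7 was left out as well.

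**Figure D1:**
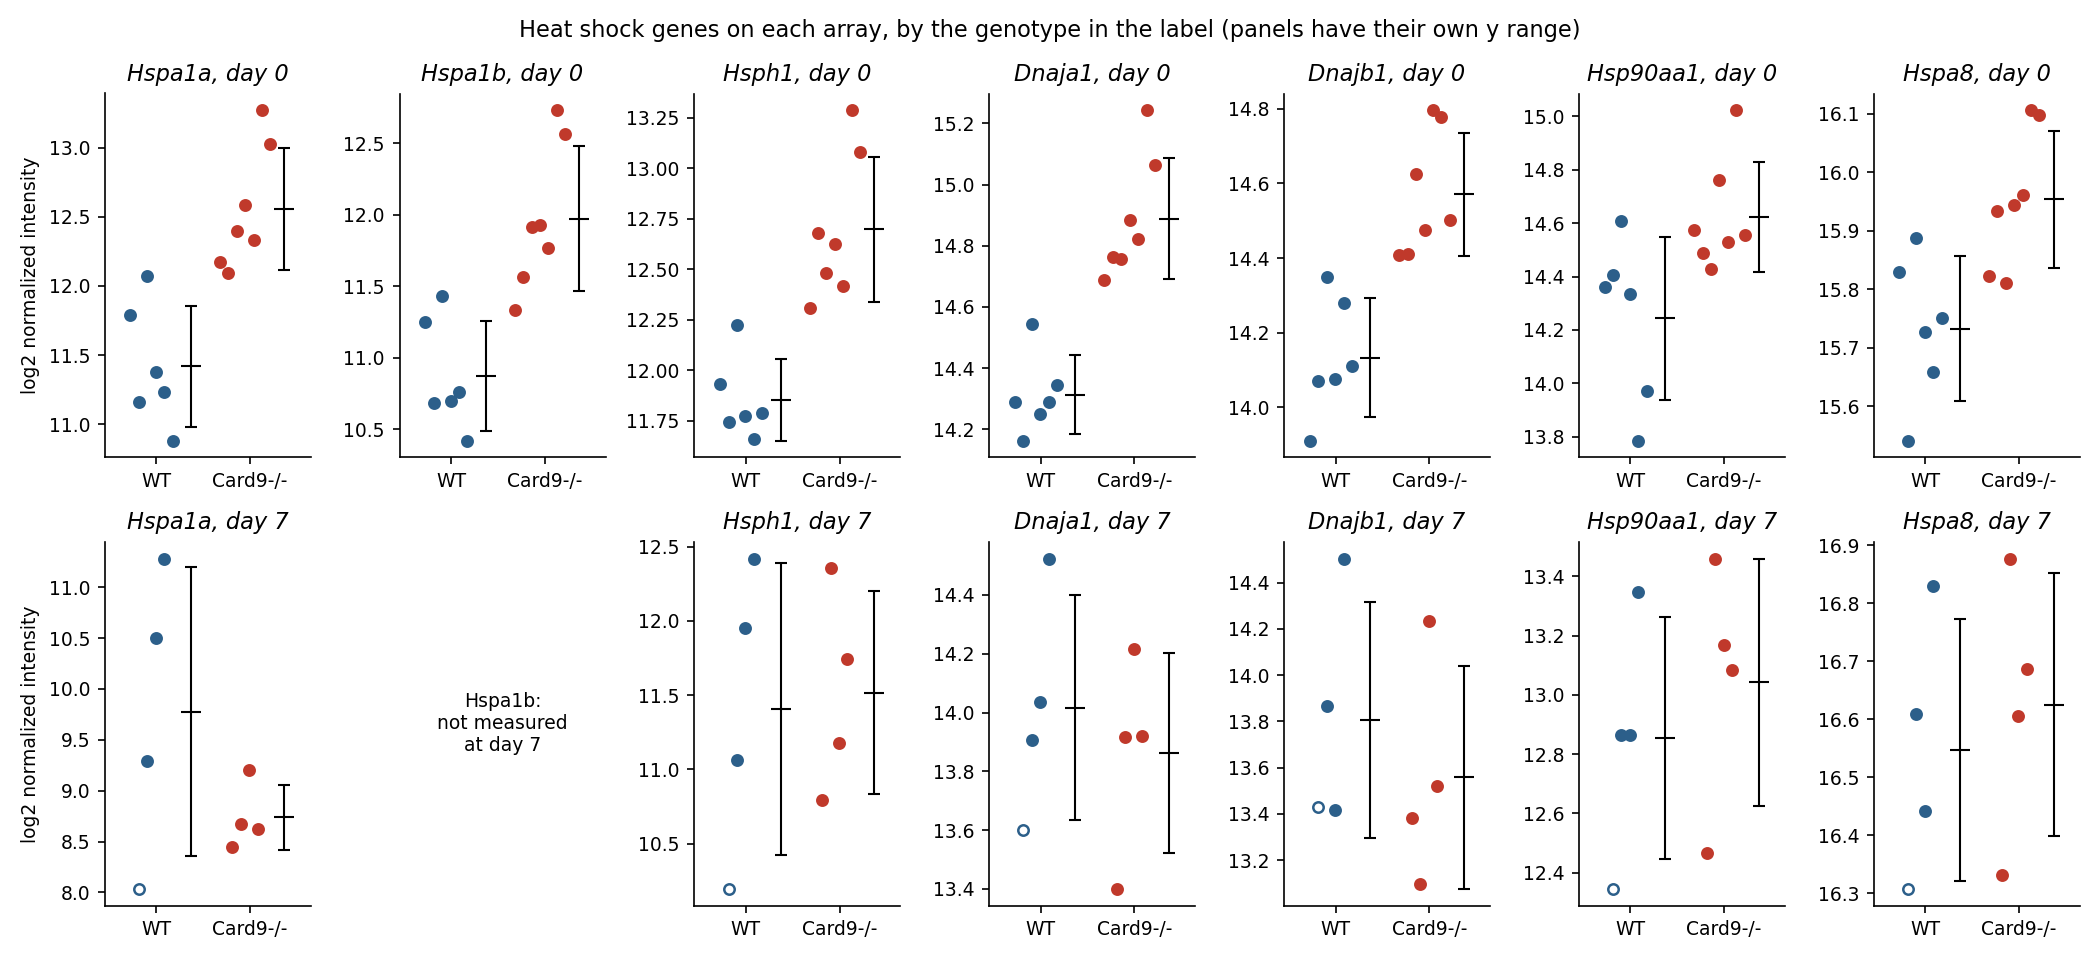
Log2 signal of Hspa1a, Hspa1b, Hsph1, Dnaja1, Dnajb1, Hsp90aa1 and Hspa8 on each array (y axis, a range of its own in each panel), by genotype label and day (x axis). Points are arrays, the black bar is the mean ± SD and the open circle is the day 7 array GF WT 1. At day 0 the Hspa1a points labelled GF Card9-/- lie at 12.09 to 13.27, all above those labelled GF WT. At day 7 the Hspa1a points overlap.

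Among the cytosolic HSP70 genes, the stress-inducible Hspa1a had the largest difference. Its day 0 probe (chr17:35106766-35106825, build NCBI37) read from 12.09 through a median of 12.40 to 13.27 on the arrays labelled GF Card9-/-, and from 10.88 through 11.31 to 12.07 on those labelled GF WT. The groups did not overlap. The difference was 1.13 (SE 0.234, n = 7 and 6), or 2.20-fold, with a limma adjusted p of 0.197 and a two-sided exact permutation p of 0.000583, the smallest that 7 against 6 arrays allow. Within the 4 slides it was 1.24, 1.05, 0.65 and 1.92.

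Hspa1b, which encodes almost the same protein from a neighbouring locus, followed the same pattern. It read from 11.34 through 11.92 to 12.73 against 10.42 through 10.73 to 11.43, and 6 of the 7 arrays labelled GF Card9-/- lay above all those labelled GF WT. The difference was 1.10 (SE 0.242), or 2.14-fold, with a limma adjusted p of 0.247. Whether each probe binds the transcript of the other gene was not tested, so which of the pair the signal came from is uncertain.

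Hspa8, the constitutive HSP70 of the cytosol, read from 15.81 through 15.94 to 16.11 against 15.54 through 15.74 to 15.89. The ranges overlapped, with 5 of 7 arrays labelled GF Card9-/- above all the others. The difference was 0.22 (SE 0.0705, limma adjusted p = 0.577), and its 4 probes gave 0.22, 0.20, 0.19 and 0.27. Hspa2, an HSP70 known best from the testis, was lower by 0.38 (SE 0.320, limma adjusted p = 0.912), and its groups overlapped.

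Of the HSP110 genes, Hsph1, which is itself induced by heat, stood out. It read from 12.31 through 12.63 to 13.29 on the arrays labelled GF Card9-/- and from 11.66 through 11.78 to 12.23 on those labelled GF WT, without overlap. The difference was 0.84 (SE 0.161), or 1.79-fold, with a limma adjusted p of 0.154 and an exact permutation p of 0.000583. Its other probes gave 0.89 and 1.06. Hspa4l was higher by 0.18 (SE 0.0762, limma adjusted p = 0.818), and Hspa4, the third of the class, by 0.03 (SE 0.0576, limma adjusted p = 0.959).

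Among the J proteins that serve cytosolic HSP70, Dnaja1 had the lowest adjusted p of all members at day 0. It read from 14.69 through 14.82 to 15.24 against 14.16 through 14.29 to 14.55. The groups did not overlap, and the difference was 0.58 (SE 0.0949), or 1.49-fold, with a limma adjusted p of 0.085 and an exact permutation p of 0.000583. Its dimmer probes gave 0.74 and 0.40. Its limma adjusted p ran from 0.047 to 0.361 over 23 other settings and was under 0.05 in 2 of them, another background correction (0.0475) and the authors' normalized table (0.047), and it was 0.0451 with limma's trend and robust options.

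Dnajb1, the J protein that works with Hspa1a in refolding and disaggregation, read from 14.41 through 14.50 to 14.80 against 13.91 through 14.09 to 14.35. The groups did not overlap. The difference was 0.44 (SE 0.0912), or 1.36-fold, with a limma adjusted p of 0.201 and an exact permutation p of 0.000583. The remaining J proteins of these classes had smaller or less regular differences. Dnajb3 was the 1 member lower at an unadjusted p under 0.05 (by 0.78, limma adjusted p = 0.852), but it was well above background on 1 of 7 and 5 of 6 arrays.

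The cytosolic HSP90 genes differed less. Hsp90aa1, the inducible form, read from 14.43 through 14.56 to 15.02 against 13.79 through 14.35 to 14.61. The ranges overlapped, and the difference was 0.38 (SE 0.138, limma adjusted p = 0.713). Hsp90ab1, the constitutive form, was higher by 0.12 (SE 0.0743, limma adjusted p = 0.912).

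The mitochondrial chaperones were higher by small amounts. Hspd1, the large chaperonin subunit, was higher by 0.20 (SE 0.0574, limma adjusted p = 0.474) and its lid Hspe1 by 0.21 (SE 0.0745, limma adjusted p = 0.676). Hspa9, the HSP70 that pulls proteins into mitochondria, was higher by 0.14 (SE 0.0532, limma adjusted p = 0.740). Of the 9 mitochondrial members 7 were higher, and these 3 had an unadjusted p under 0.05. The exceptions included Dnajc28, which was lower by 0.21.

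Of the 8 chaperones of the ER, 7 were higher at day 0, with a median of 0.14, and 3 had an unadjusted p under 0.05. Hspa5 (BiP), the HSP70 of the ER, read from 14.61 through 15.05 to 15.20 against 14.51 through 14.73 to 15.02. The ranges overlapped, and the difference was 0.26 (SE 0.107, limma adjusted p = 0.787), with 0.30 and 0.33 at its other probes. Its partner Dnajb11 was higher by 0.20 and Dnajc25 by 0.19. Hspa13, Dnajb9, Dnajc3 and Dnajc10 were higher without reaching an unadjusted p of 0.05, and Dnajc1 was lower by 0.04.

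**Figure D2:**
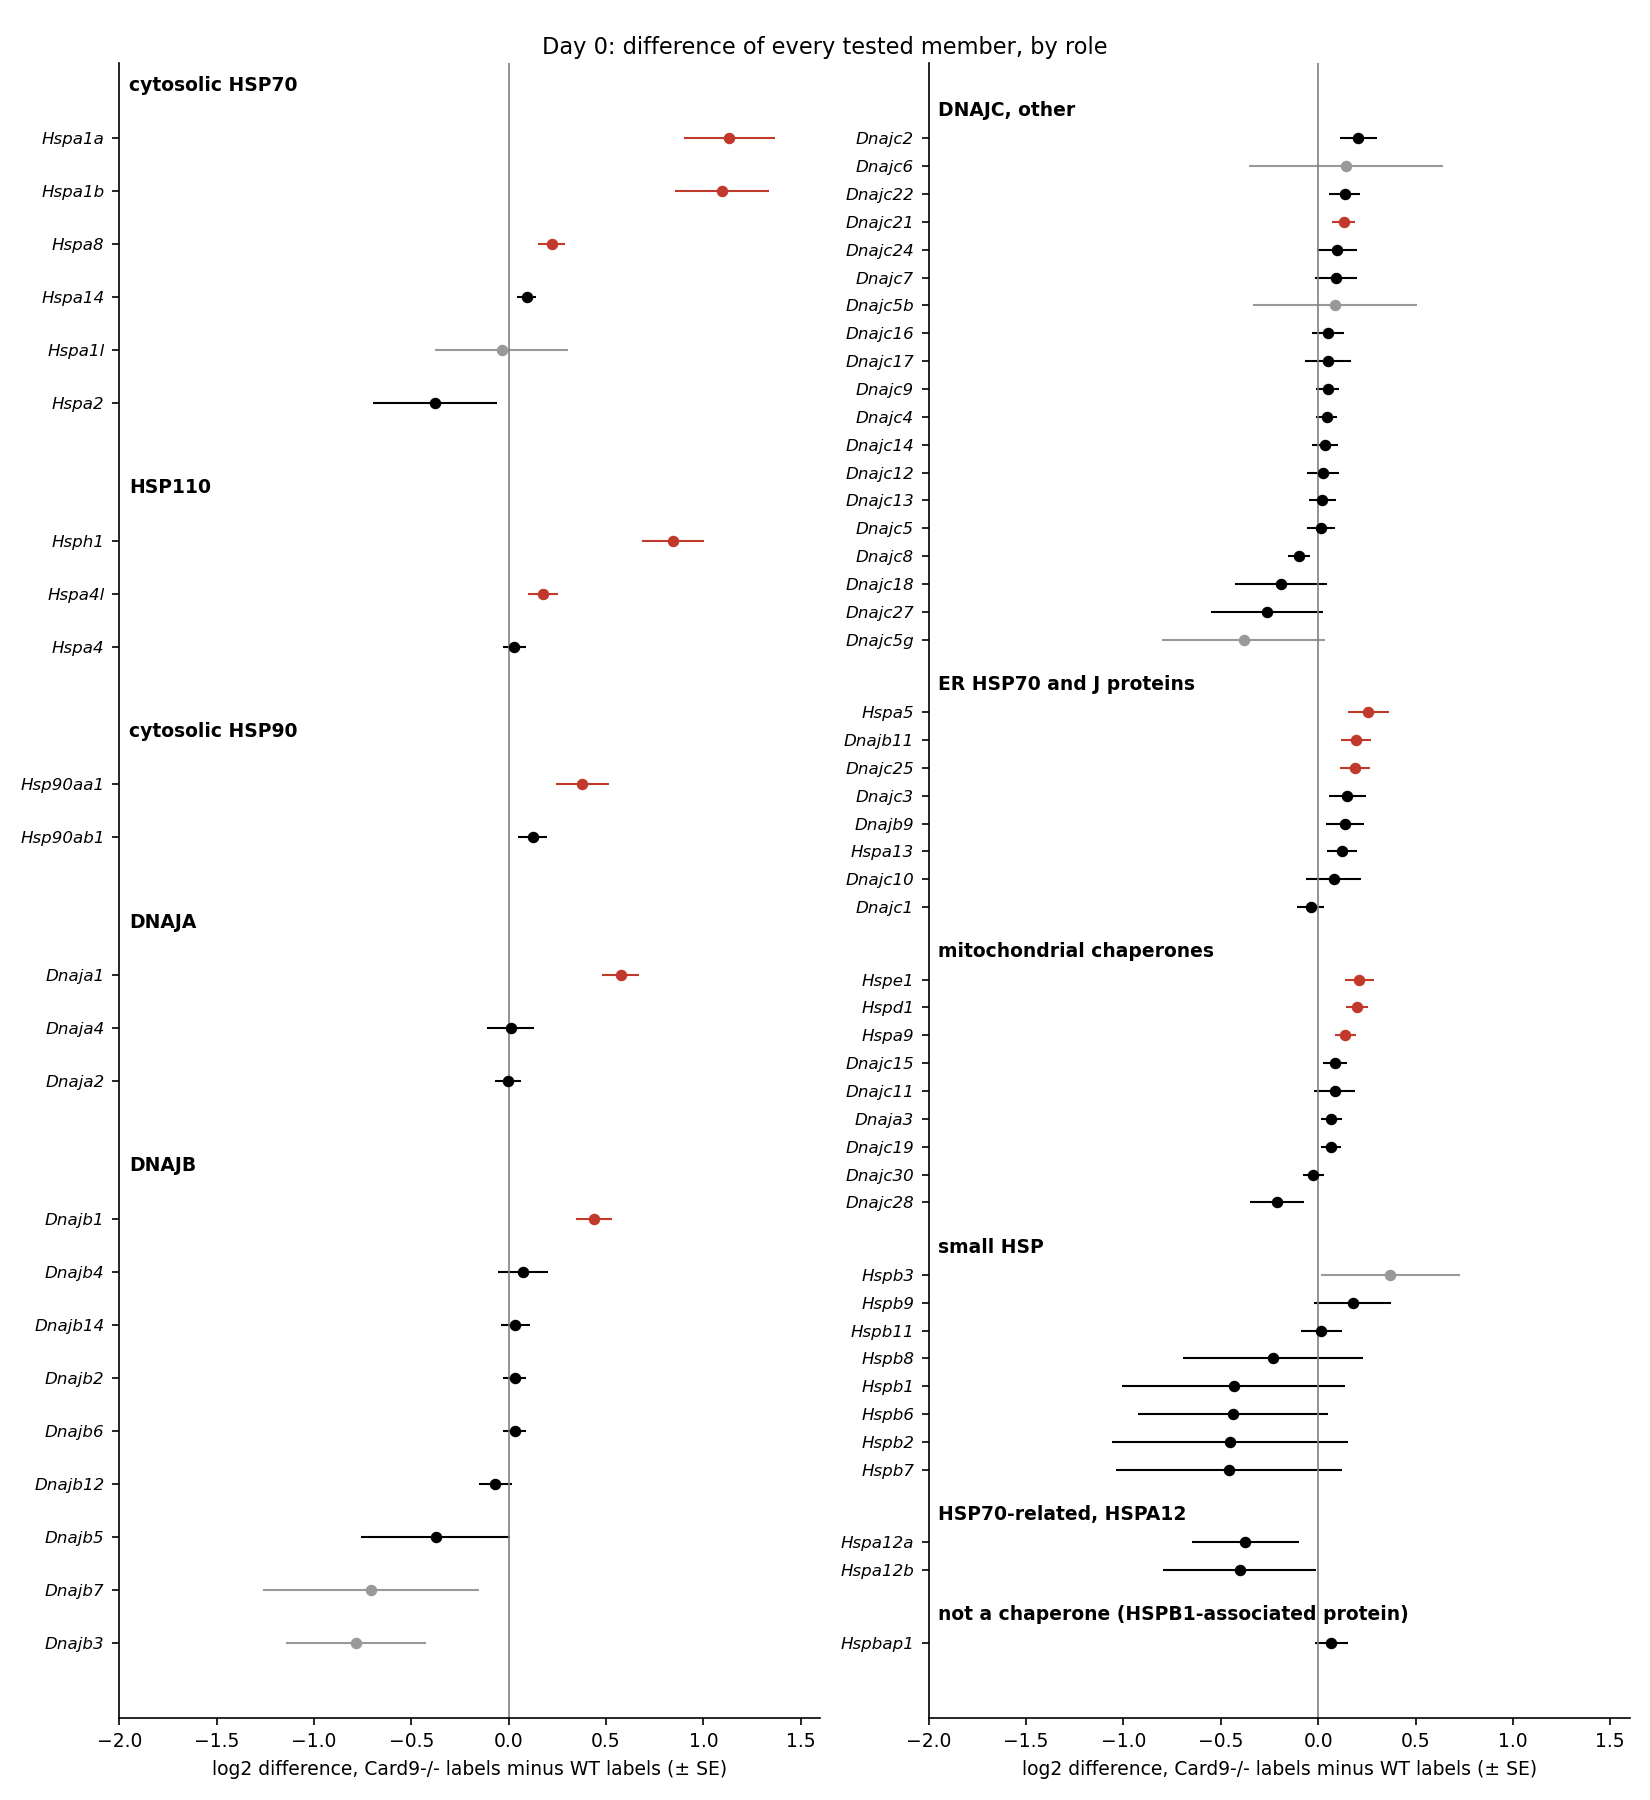
Difference in log2 signal at day 0 (x axis, GF Card9-/- label minus GF WT label) for each of the 70 members tested (y axis, grouped by role), with bars of 1 SE. Red marks an unadjusted p under 0.05 and grey a probe well above background on fewer than 7 of the 13 arrays. Hspa1a, at 1.13, lies farthest to the right among the bright probes, and Hspb1, Hspb2, Hspb6 and Hspb7 lie at −0.43 to −0.46 with wide bars.

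Of the 8 small heat shock proteins 5 were lower and 3 higher, with errors about as large as the differences or larger. Hspb1 (HSP25) was lower by 0.43 (SE 0.572), Hspb2 by 0.45 (SE 0.605), Hspb6 by 0.44 (SE 0.487), Hspb7 by 0.46 (SE 0.580) and Hspb8 by 0.23 (SE 0.461). Their limma adjusted p-values lay between 0.913 and 0.960. All of their groups overlapped. Without GF Card9-/- 5, the lowest array for each, the values of Hspb1, Hspb2, Hspb6 and Hspb7 were −0.11 to −0.19 and that of Hspb8 was 0.02. On the 4 slides that hold both genotypes Hspb1 differed by −2.01, 0.32, −0.10 and 0.09, and the slide with −2.01 had the lowest value of the other 4 genes as well. Hspb6, a small heat shock protein of smooth and cardiac muscle, shows the spread: it ran from 9.10 to 12.17 on the arrays labelled GF Card9-/- and from 10.14 to 11.83 on those labelled GF WT. Hspb9 was higher by 0.18 (SE 0.197) and Hspb11, the protein of intraflagellar transport, by 0.02 (SE 0.104), and Hspb3 by 0.37 (SE 0.357) with no array well above background. Dnajb5, a J protein of the cytosol, was lower by 0.38 (SE 0.381), Hspa12a by 0.37 (SE 0.273) and Hspa12b, an HSP70 relative of endothelium, by 0.40 (SE 0.393).

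The spread of the 5 that were lower followed that of smooth muscle RNA from array to array. Hspb9 and Hspb11 were not set against it. All 10 smooth muscle markers were lower at day 0 (median −0.45, none at an unadjusted p under 0.05), and their summed linear signal ran from 92340 to 927300 on the arrays labelled GF Card9-/- and from 152400 to 825400 on those labelled GF WT. Each marker was well above background on 11 or more of the 13 arrays. Neuron and glia markers were lower for 8 of 8 (median −0.23), with a summed signal of 22270 to 41070 against 31820 to 41450, and macrophage markers for 7 of 7 (median −0.34), with 6164 to 13190 against 5122 to 18240, all well above background on all 13 arrays. The neuron and glia score, like that of the muscle-rich small heat shock proteins, was lowest on GF Card9-/- 5 and 6 of the arrays with that label (−0.93 and −0.52) and highest on 1 and 4 (0.36 and 0.39). The members were set against smooth muscle alone. Against Myh11, the myosin heavy chain of smooth muscle, Hspb6 gave Pearson's r = 0.986 and Spearman's rho = 0.989 over the 13 arrays, with permutation p-values of 1e-05 each, the smallest that 100000 permutations can give, and 3.6e-05 and 4.5e-05 after adjustment over the 18 relations computed. Without the 2 arrays farthest from the median of Myh11 r was 0.981. Within the scan sessions r was 0.992 (6 arrays) and 0.989 (7 arrays).

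For Hspb1, Hspb2, Hspb7, Hspb8, Dnajb5 and Hspa2 r lay between 0.924 and 0.986, between 0.870 and 0.995 within the sessions, and between 0.872 and 0.978 without those 2 arrays. Their adjusted permutation p-values were 7.71e-05 or lower for r and 0.000437 or lower for rho. The same relation was not seen for Hspa1a (r = −0.124, permutation p = 0.685, rho = −0.137, p = 0.656) or Hsph1 (r = −0.238, permutation p = 0.429, rho = −0.187, p = 0.541). At day 7, over 8 arrays, r was 0.813 to 0.941 for the same 5 small heat shock proteins, Dnajb5 and Hspa2, with adjusted exact permutation p-values of 0.00218 to 0.0355, and 0.629 for Hspa1a (exact permutation p = 0.0976). After adjustment rho passed only for Hspb8 (0.857, exact permutation p = 0.0107) and Hspa2 (0.833, exact permutation p = 0.0154). For Dnajb5 r was 0.55 without the 2 farthest arrays. The part of muscle, nerve or macrophage content in the differences was not tested.

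**Figure D3:**
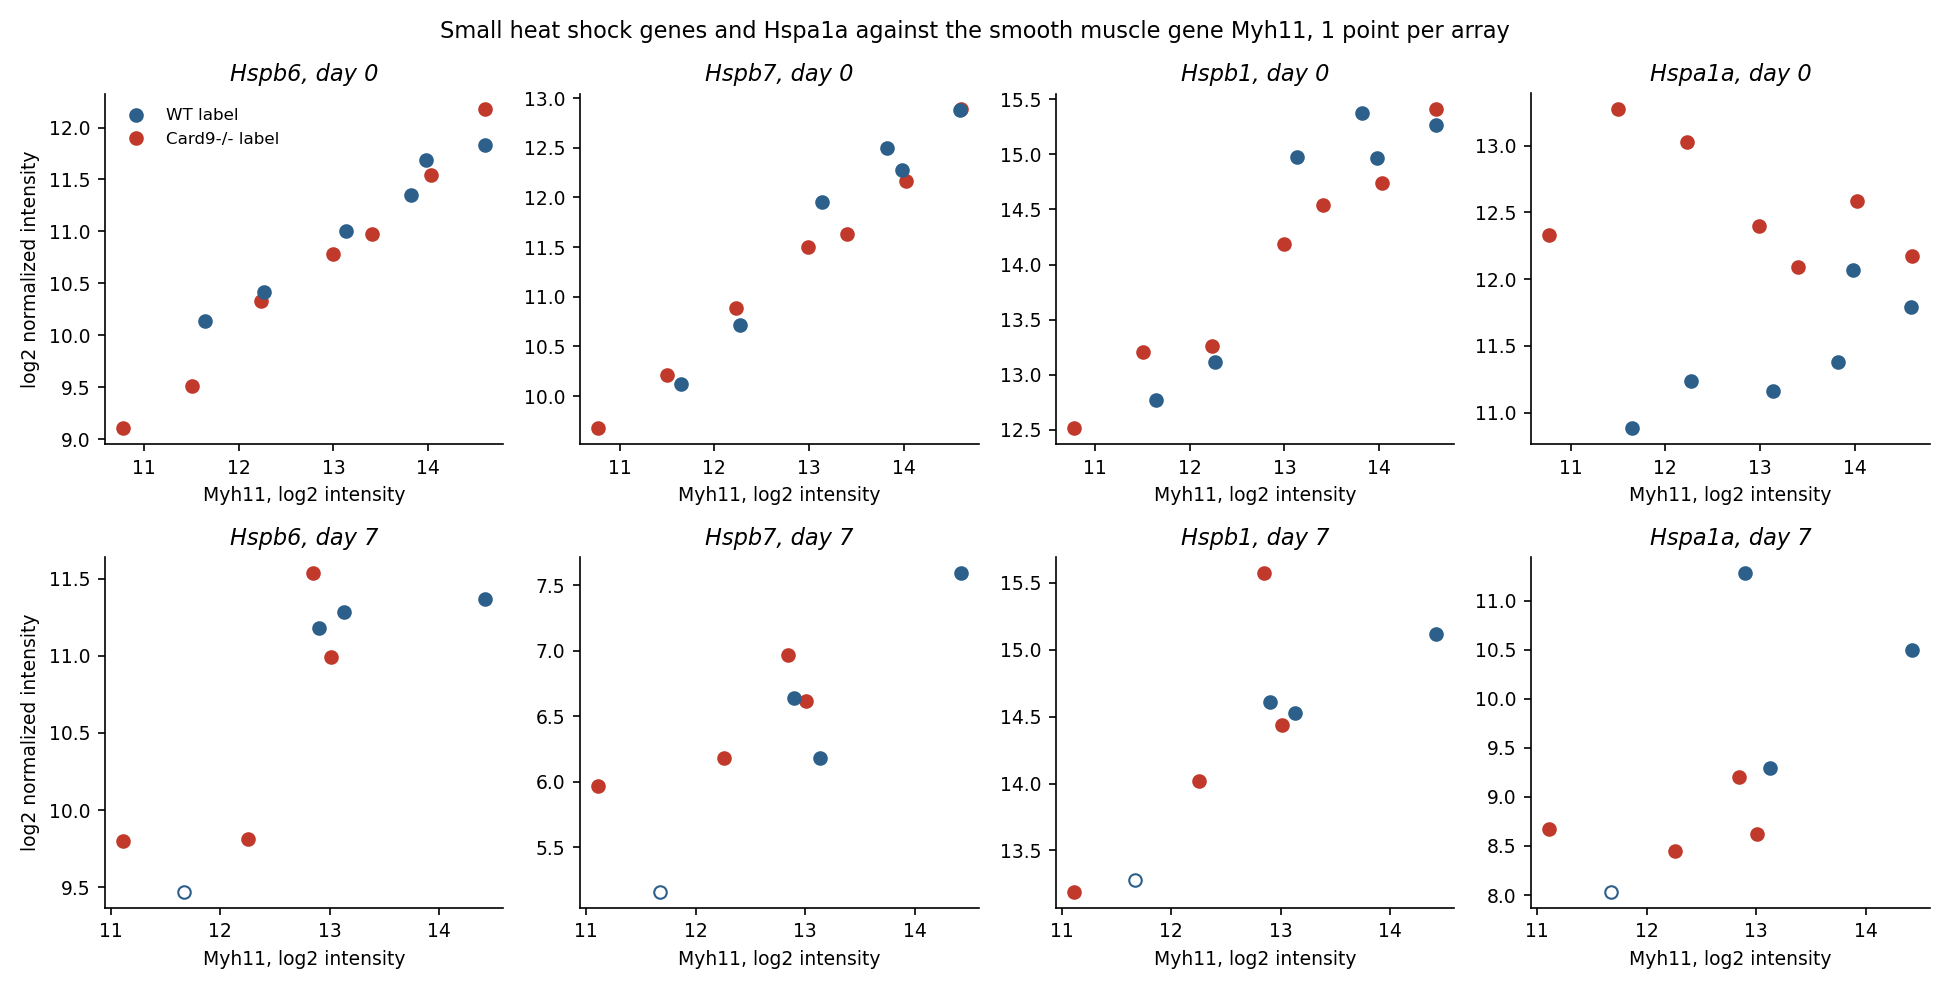
Log2 signal of Hspb6, Hspb7, Hspb1 and Hspa1a (y axes) at day 0 and day 7 against log2 signal of the smooth muscle gene Myh11 (x axis), with 1 point per array, coloured by genotype label, and the day 7 array GF WT 1 as an open circle. At day 0 Hspb6 follows Myh11 (r = 0.986) over a Myh11 range of 10.78 to 14.60, and Hspa1a does not (r = −0.124).

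The list of 13 genes inducible through heat shock factor 1 gathers the pattern of day 0. Of its members 12 were higher and 10 had an unadjusted p under 0.05, with a median difference of 0.22. The exception was Hspb1. The list was written with results of these data known, so its direction is a description. Its score, an average of log2 signals after each gene's own mean for the day was removed, was 0.18 ± 0.14 (SD, n = 7) under the GF Card9-/- label and −0.21 ± 0.19 (SD, n = 6) under the GF WT label, and 6 of 7 lay above all the others. The score over all 72 members differed by 0.04, with −0.10 to 0.15 against −0.13 to 0.07.

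Regulators and partners of the family were read from further lists, in which no gene was called at day 0. Of 20 co-chaperones 14 were higher, with a median of 0.09, and 6 had an unadjusted p under 0.05. Chordc1, an HSP90 co-chaperone, was higher by 0.62 (SE 0.108, limma adjusted p = 0.120), Bag5, an HSP70 exchange factor, by 0.31 (SE 0.0557, limma adjusted p = 0.125) and Ahsa2, of the family of HSP90 ATPase activators, by 0.40 (SE 0.108, limma adjusted p = 0.381). Bag3, Stip1 and Fkbp4 were the others. All 5 regulators were higher, Hsf1 by 0.09 (SE 0.0688) and Hsf2 by 0.09 (SE 0.0799). Hsf4 was higher by 0.95 (unadjusted p = 0.0297 and adjusted p = 0.781 by limma), with 3 of 13 arrays well above background, and Hsf5 by 0.52 (limma adjusted p = 0.912), with 8 of 13.

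Of 20 genes of the ER stress response 17 were higher, with a median of 0.10 and 4 at an unadjusted p under 0.05, and the largest were Creld2 at 0.27 and Derl3 at 0.24. All 8 subunits of the cytosolic chaperonin CCT were higher (median 0.07, largest Cct7 at 0.16 and Cct3 at 0.10), none at an unadjusted p under 0.05. Among 8 genes of mitochondrial protein quality control 7 were higher (median 0.04), with Clpp at 0.11 and Grpel1 at 0.11.

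Immediate early genes, transcription factors and phosphatases that respond quickly to many stimuli, were measured beside them. At day 0, 9 of 11 were higher (median 0.18), none at an unadjusted p under 0.05, and their summed linear signal ran from 49570 to 68630 against 46980 to 62240. Each of the 11 was well above background on all 13 arrays. Their part in the heat shock differences was not tested. Pancreatic enzyme genes were higher for 10 of 10 (median 1.51), with a summed signal of 44610 to 1985000 against 24980 to 59510, the top value being that of GF Card9-/- 7. Without this array the Hspa1a difference was 1.06 and that of Dnaja1 0.55. Mesothelium markers were higher for 5 of 5 (median 0.91), 1 of them at an unadjusted p under 0.05. T cell markers were higher for 8 of 8 (median 0.25), none at that threshold. The mesothelium score was highest on GF Card9-/- 7 and 6 (1.44 and 0.88) and the T cell score on GF Card9-/- 6 (2.07). The heat shock factor score was highest on GF Card9-/- 6 and 7 (0.42 and 0.28). The part of these cells was not tested.

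At day 7 of DSS no member was called (0 of 67, with a lowest adjusted p of 0.913), and 0% of all 44643 probes were. The members split evenly, with 31 higher and 36 lower, and their median difference was −0.03. Under 4 other ways of preparing the signals 29 to 34 were higher, and scaling to the 75th percentile, with 33 higher, moved the median of all probes to −0.14. At an unadjusted p under 0.05, 1 of 67 members was higher (1.49%), against 1.76% of 21732 named genes, and 0 were lower, against 1.23%. The groups did not overlap for the same 1 member on the higher side, against 1.05% of named genes, and for 0 on the lower side, against 0.92%. These shares are near those of all genes.

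Hspa1a was lower at day 7 by 1.04 (SE 0.661, n = 4 and 4), with a limma adjusted p of 0.913 and a two-sided exact permutation p of 0.229, where 4 against 4 arrays cannot go below 0.0286. Its day 7 probe (chr17:35107117-35107176, build NCBI37, another than at day 0) read 8.45, 8.68, 9.20 and 8.63 on GF Card9-/- 2, 2.1, 4 and 6. It read 8.03, 9.29, 10.50 and 11.28 on GF WT 1, 4, 5 and 6. The arrays labelled GF Card9-/- lay close together, those labelled GF WT spread over more than 3 log2 units, and GF WT 1, the array with Card9 signal, was the lowest of all. Without it Hspa1a was lower by 1.62 (SE 0.468, limma adjusted p = 0.941), the groups did not overlap, and the exact permutation p was 0.0286, the smallest that 4 against 3 allow. Without GF WT 6, the array with the highest value, it was lower by 0.54, and without any other single array by at least 0.80. On the 2 slides that hold both genotypes the difference was −2.83 and −0.62.

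Other genes of the heat shock factor list were divided at day 7. The direction of Hsph1, Dnaja1 and Hspa8 turned with the array left out. Dnajb1, Hsp90ab1 and Hsp90aa1 kept theirs. Hsph1 read 10.79, 12.35, 11.18 and 11.75 on the arrays labelled GF Card9-/- and 10.19, 11.06, 11.95 and 12.42 on those labelled GF WT. The groups overlapped, and its difference was 0.11 (SE 0.545) with all arrays and −0.29 without GF WT 1. Its other probe, well above background on all 8 arrays, gave −0.12, so the sign also turned with the probe. Dnaja1 was lower by 0.15 (SE 0.245, limma adjusted p = 0.940), Dnajb1 by 0.25 (SE 0.327, limma adjusted p = 0.925) and Hsp90ab1 by 0.17 (SE 0.167). Hsp90aa1 was higher by 0.19 (SE 0.276). The brightest Hspa8 probe was higher by 0.08 (SE 0.166), and its other probes gave −0.12 and −0.29. All of these groups overlapped. Without GF WT 1 Dnaja1 was lower by 0.29, Dnajb1 by 0.37 and Hsp90ab1 by 0.15, and Hsp90aa1 and Hspa8 differed by 0.02 and −0.001. Without GF WT 6, in turn, the difference was 0.45 for Hsph1, 0.015 for Dnaja1 and −0.01 for Dnajb1. Of the 12 genes of the heat shock factor list measured at day 7, 5 were higher and 7 lower, with a median of −0.03, and 0 reached an unadjusted p of 0.05. Without GF WT 1 or without GF Card9-/- 2.1, 3 of 12 were higher and 9 lower, while without GF Card9-/- 2, 9 were higher and 3 lower. With 75th percentile scaling 7 of 12 were higher, and within the 2 slides that hold both genotypes 1 of 12 was. Its score was −0.05 ± 0.29 against 0.05 ± 0.38 (SD, n = 4 each), a difference of −0.10, which was −0.26 without GF WT 1 and 0.05 without GF WT 6.

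Of the ER chaperones 7 of 8 were higher at day 7 as well, with a median of 0.20, and within the 2 slides that hold both genotypes 4 of 8 were. None reached an unadjusted p of 0.05 at its brightest probe. Dimmer probes of Dnajb9 (0.30, unadjusted p = 0.0425 by limma) and Hspa13 (0.56, unadjusted p = 0.0288 by limma) did, both with an adjusted p of 0.913. These were well above background on 8 and 5 of 8 arrays. The dimmer probe of Dnajb11 gave −1.17, with 1 array well above background. Hspa5 read 14.21, 15.15, 14.80 and 14.68 against 14.52, 14.44, 14.07 and 14.51. On 3 of 4 arrays labelled GF Card9-/- it lay above all those labelled GF WT, and GF Card9-/- 2 lay below 3 of them. The difference was 0.32 (SE 0.217, limma adjusted p = 0.913). Dnajb9, a J protein of ER-associated degradation, was higher by 0.26 (SE 0.125), Hspa13 by 0.27 (SE 0.206) and Dnajb11 by 0.24 (SE 0.199). Dnajc1 was the exception, lower by 0.09. On the slide of GF Card9-/- 2 and GF WT 6 Hspa5 was lower by 0.31, and on that of GF Card9-/- 2.1 and GF WT 4 it was higher by 0.72. Of the 20 ER stress genes 13 were higher, with a median of 0.08, the largest being Pdia4 at 0.44 and Sdf2l1 at 0.31. Goblet cell markers were higher for 6 of 7 (median 0.31), with a summed signal of 1334000 to 1641000 against 1066000 to 1427000, and colonocyte markers for 8 of 8 (median 0.32), with 463400 to 751200 against 223800 to 622100. On the ER, goblet cell and colonocyte scores alike, GF WT 5 was the lowest of all arrays. Without it 6 of 8 ER chaperones were higher with a median of 0.13, and the score difference went from 0.61 to 0.26 for colonocytes and from 0.29 to 0.16 for goblet cells. Adipocyte markers were higher for 6 of 7 (median 1.45), with a summed signal of 23300 to 105700 against 15080 to 68960, and small intestine markers for 6 of 9 (median 0.87), with 27180 to 92020 against 7149 to 74600. Lep and Apoa4 of these lists were well above background on no array. The scores of both lists too were lowest on GF WT 5 (−1.84 and −1.46) and highest, like the ER score, on GF Card9-/- 2.1 (1.64 and 0.94). RNA of pancreatic enzyme genes was highest on GF Card9-/- 6 and 2.1, which were also the highest arrays for Dnajb11 (12.98 and 13.01), and GF Card9-/- 2.1 was the highest for Hspa5. Without both, a setting planned for the counts of calls and applied to this list after seeing the data, 6 of 8 ER chaperones were higher with a median of 0.10, and the difference was 0.12 for Hspa5 and −0.02 for Dnajb11. Without GF Card9-/- 2.1 alone that of Hspa5 was 0.18. T cell markers were higher for 8 of 8 (median 0.86, 2 at an unadjusted p under 0.05). Neutrophil markers were higher for 7 of 7 (median 0.17), and their score lay on all 4 arrays labelled GF Card9-/- above all those labelled GF WT. The 3 neutrophil markers at an unadjusted p under 0.05, S100a8, S100a9 and Retnlg, were well above background on 1, 5 and 2 of 8 arrays. The part of these cells, of small intestine and of pancreatic RNA in the ER chaperone differences was not tested.

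Dnajc5, a J protein of secretory vesicles, was the 1 member at an unadjusted p under 0.05 at day 7. It read 16.31, 15.88, 15.97 and 16.06 on the arrays labelled GF Card9-/- and 15.71, 15.85, 15.70 and 15.69 on those labelled GF WT, without overlap. The difference was 0.32 (SE 0.122, limma adjusted p = 0.913, exact permutation p = 0.0286). Its 3 dimmer probes gave 0.06, 0.05 and 0.10, so the difference was not shared by the other probes of the gene. At day 0 its brightest probe, another than at day 7, differed by 0.02.

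Among other bright members, Dnajc14 was higher by 0.74 (SE 0.387), Dnajb12 by 0.24 and Dnajc19, of the mitochondrial import motor, by 0.23. Dnajc28 was lower by 0.59 (SE 0.444), Dnajc12 by 0.37, Hspb2 by 0.38, Dnajb5 by 0.36, Hspb6 by 0.29 and Hspa12b by 0.26. All of these groups overlapped. Without GF WT 1 the values were −0.25 for Dnajc28, −0.25 for Dnajc12, −0.79 for Hspb2, −0.53 for Dnajb5, −0.74 for Hspb6 and −0.44 for Hspa12b. With other single arrays left out the highest values were −0.17 for Hspb2, 0.00 for Dnajb5, −0.04 for Hspb6 and 0.06 for Hspa12b. Without GF WT 5 Dnajc14 was higher by 0.38 and Dnajb12 by 0.08. Of the 9 mitochondrial members 4 were higher and 5 lower, and of the 5 muscle-rich small heat shock proteins tested 4 were lower, and without GF WT 1 all 5, Hspb7 included (0.04 with all arrays, −0.38 without). Without GF WT 5 only 2 of these 5 were lower, Hspb7 was higher by 0.44 and Hspb8 by 0.32, and the difference of Dnajc19 was 0.003. With single arrays left out 1 to 7 of the mitochondrial members were higher. Smooth muscle markers were lower for 9 of 10 (median −0.38), with a summed signal of 117000 to 559300 against 162600 to 644500, each well above background on 7 or 8 arrays. The smooth muscle score differed by −0.38 with all arrays, −0.85 without GF WT 1 and 0.01 without GF Card9-/- 2.1. The part of smooth muscle was not tested.

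Among the 20 co-chaperones 7 were higher at day 7 and 13 lower, with a median of −0.09. Fkbp5, an HSP90 co-chaperone of steroid receptors, was higher by 0.72 (unadjusted p = 0.0300 by limma) and Bag3, which is induced together with HSP70, lower by 0.39 (unadjusted p = 0.0320 by limma), both with an adjusted p of 0.913. Of the CCT subunits 2 of 8 were higher (median −0.16), of the mitochondrial quality control genes 2 of 8 and of the regulators 2 of 5. Immediate early genes were higher for 2 of 11 (median −0.30), with a summed signal of 16640 to 24810 against 19270 to 39660. Their score differed by −0.25, by −0.56 without GF WT 1 and by 0.03 without GF WT 4. Pancreatic enzyme genes were higher for 9 of 10, with a summed signal of 7849 to 683700 against 6261 to 23500.

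Without GF WT 1, 0 of 67 members were called at day 7, 29 were higher and 38 lower. In that setting the groups did not overlap for 2 members on the lower side, Hspa1a and Dnajb4, against 1.77% of all probes, and for Dnajc5 on the higher side, against 2.04%. Dnajb4, a J protein of the cytosol, was then lower by 0.50 (SE 0.199, limma adjusted p = 0.941), and with all arrays by 0.17.

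**Figure D4:**
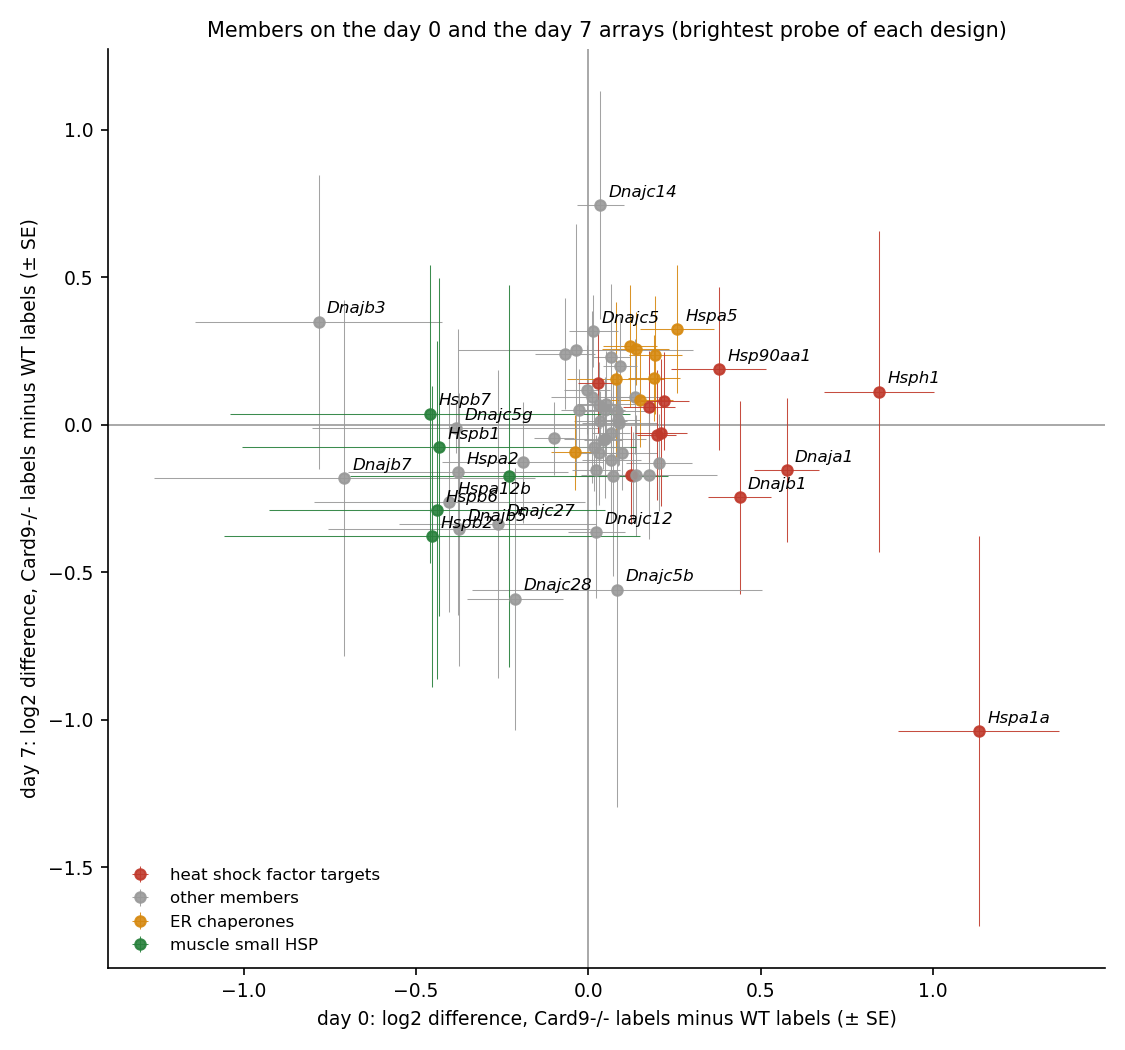
Difference in log2 signal at day 7 (y axis) against day 0 (x axis) for the members, each as GF Card9-/- label minus GF WT label, with lines at 0 and bars of 1 SE, coloured by heat shock factor list, ER chaperones, muscle-rich small heat shock proteins and other members. Hspa1a lies at 1.13 and −1.04, Hsph1 at 0.84 and 0.11, and Hspa5 at 0.26 and 0.32.

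Whether the difference between the labels itself differed between the days was asked in a single limma fit over all 21 arrays, restricted to the 23633 probes shared by the designs that passed the filter at both days. No probe was called (0%, lowest adjusted p 0.281, 1688 at an unadjusted p under 0.05), and so no member. The 60 members with a shared probe were read by the brightest shared one, which was not the gene's brightest probe at day 7 for 8 of them and at day 0 for 17. Of these 60, 55 were tested, and 33 had the same sign at both days. Of the 22 with opposite signs, 16 were higher at day 0 and lower at day 7, and 6 the reverse. An unadjusted p under 0.05 was found for 2 of 55, Dnaja1 and Dnajb1, both with a lower difference at day 7, where 4.55% of all probes were.

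For Dnaja1 the difference was 0.58 at day 0 and −0.15 at day 7, which is a difference of −0.73 (SE 0.229, limma adjusted p = 0.476). For Dnajb1 it was 0.44 and −0.25, a difference of −0.69 (SE 0.285, limma adjusted p = 0.604). For Hsph1 the values were 0.84 and 0.11 (difference −0.73, SE 0.483, limma adjusted p = 0.790), and for Hspa5 0.26 and 0.32 (difference 0.07, SE 0.220, limma adjusted p = 0.971). Hspa1a had no shared probe. The fit took a common spread per probe for both days. At day 7 alone the SE was 0.245 for Dnaja1, 0.327 for Dnajb1 and 0.545 for Hsph1, each above that of the difference between days. The SEs and p-values of this fit may therefore be too low where day 7 spread more.

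A fit that took the brightest probe of each gene on each design, chosen after seeing the data, covered 66 members among 19369 genes and called none of either with all arrays. Without GF WT 1 it called 1 gene (lowest limma adjusted p 0.0315), which was no member. In it Hspa1a differed by −2.17 between the days (SE 0.610, limma adjusted p = 0.378), and by −2.76 (SE 0.478, limma adjusted p = 0.127) without GF WT 1. With the day 7 array GF WT 6 left out instead it was −1.67. With all arrays the SE of 0.610 was again below the 0.661 of day 7 alone, so it may be too low. Without GF WT 1 Hsph1 differed by −1.14 (SE 0.415, unadjusted p = 0.0137 and adjusted p = 0.534 by limma), Dnaja1 by −0.87 (limma adjusted p = 0.299) and Dnajb1 by −0.81 (limma adjusted p = 0.525). The sign of Hspa1a was thus opposite at the days, but the change of sign rested on different probes and did not pass the adjustment. The score over the 60 shared members differed between the labels by 0.01 at day 0 and −0.03 at day 7, a difference of −0.04 against a pooled SD between arrays of 0.09.

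**Figure D5:**
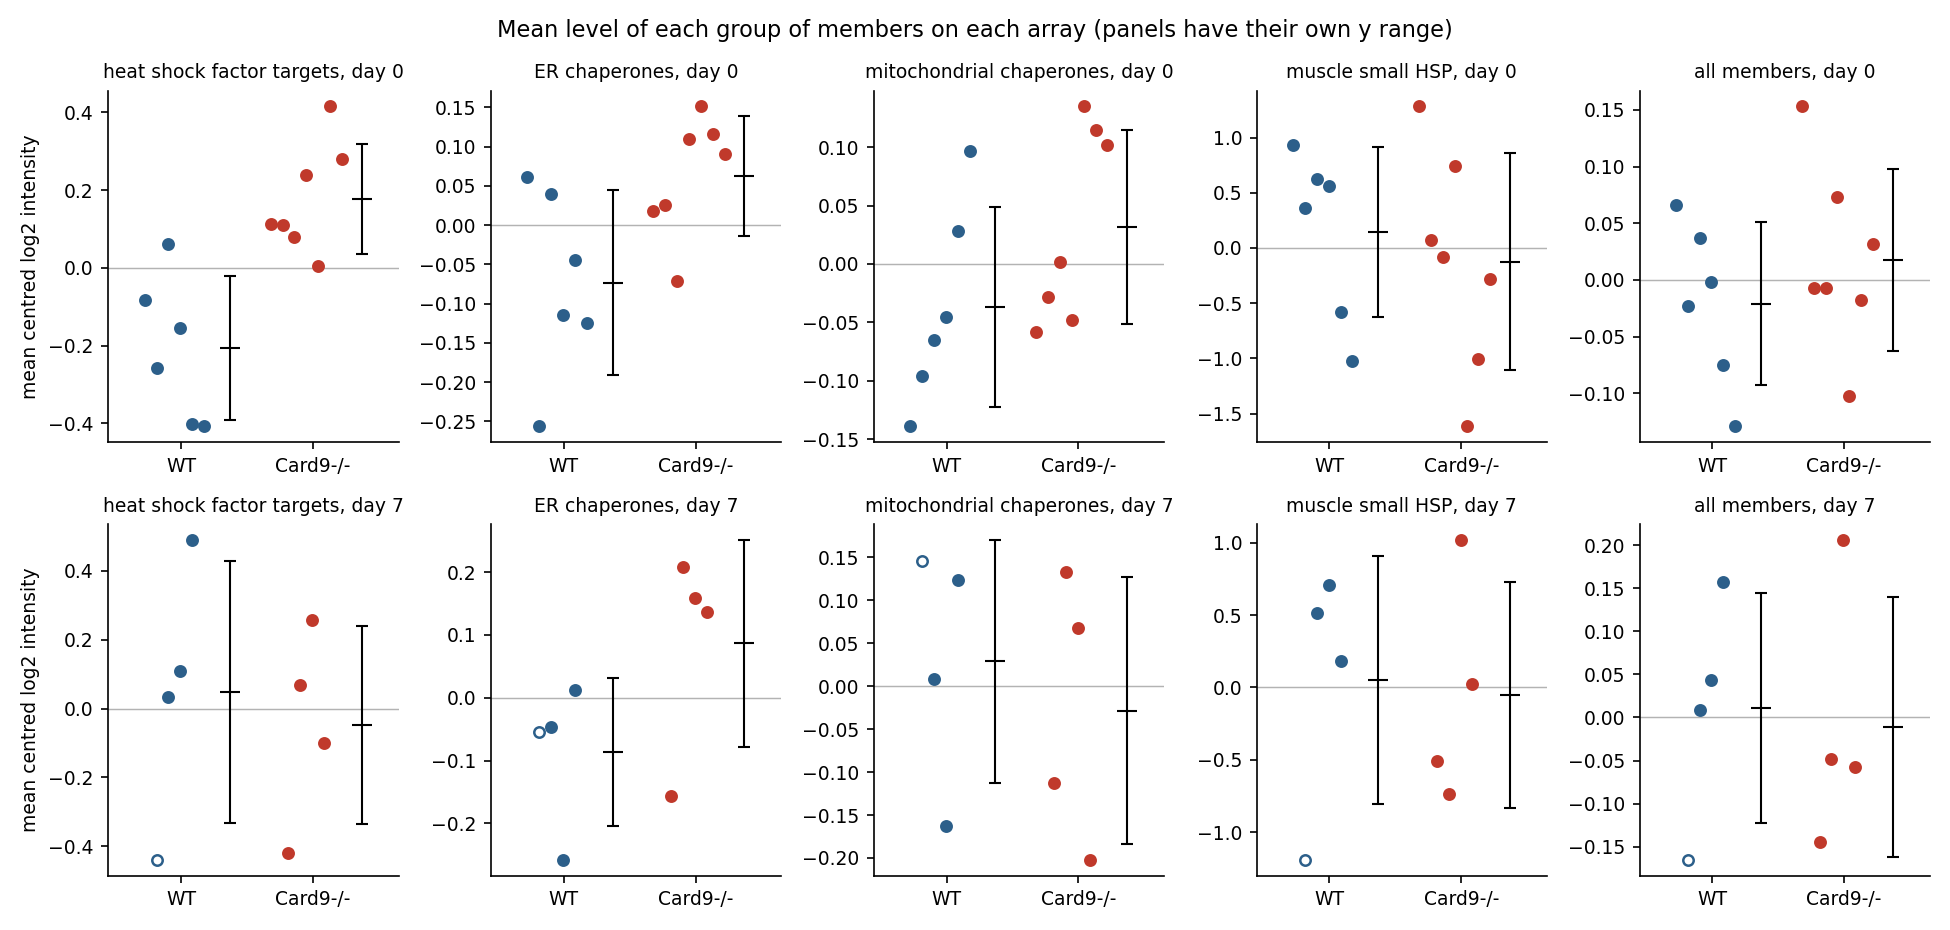
Per-array score (y axis, mean log2 signal of the set minus its mean over the day) of all members, the heat shock factor list, the ER chaperones, the mitochondrial chaperones and the muscle-rich small heat shock proteins, by genotype label and day (x axis). Points are arrays, the black bar is the mean ± SD and the open circle is the day 7 array GF WT 1. The heat shock factor list lies at 0.00 to 0.42 on the arrays labelled GF Card9-/- and −0.41 to 0.06 on those labelled GF WT at day 0, and overlaps widely at day 7.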

How the data were processed

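Colon RNA was hybridised to single-color Agilent arrays (13 at day 0, 8 at day 7). The authors extracted the deposited intensity values with Agilent Feature Extraction 10.7.3.1. The deposited p-value tests each spot against its background. The authors also deposited log2 values of the arrays, quantile normalized per their methods, used here as an alternative. Their methods name agilp, a detection filter (60% of a group at p under 0.05), limma and Benjamini-Hochberg adjustment.

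The processed signal was log2-transformed, quantile normalized within a day and averaged over the spots of a probe, without control spots and outliers. Probes passed the filter if 50% or more of their spots were detected on 60% or more of a genotype's arrays. limma 3.58.1 in R 4.3.3 compared the labels within each day and their difference between days, and was tested on simulated data. Alternatives covered background, normalization, filter, slide, session, replicate number and left-out arrays. Exact permutation tests are two-sided. Promoters are RefSeq's.

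The members and lists were chosen with earlier results of these data known. Named in the text are Card9, the 8 members with the largest difference in each direction among bright probes, all members of the heat shock factor, ER and muscle-rich lists, and the 2 largest of other lists. Further members are named where a count or probe pattern turns on them. On 13 lists of cell type and stress markers, with 106 genes tested at day 0 and 105 at day 7, 0 genes were called by limma at either day (at an unadjusted p under 0.05, 1 higher at day 0, and 8 higher and 1 lower at day 7).

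The number of arrays limits the precision. Proteins were not analysed here.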

Additional observations from a re-analysis of the deposited data

Results flagged for a closer look

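Of 130 groups of arrays examined, 5 held an array whose gap to its nearest neighbour was large for the range of its group, and chance gives about 5% of groups. At day 7 Hspb6 read 9.47 on GF WT 1, against 11.18 to 11.37 on the other arrays labelled GF WT. Dnajb12 read 9.23 on GF WT 5, against 9.82 to 9.90. Dnajc5 read 15.85 on GF WT 4, against 15.69 to 15.71. Hspa12b read 6.93 on GF Card9-/- 2.1, against 7.72 to 7.82 on the other arrays with that label. At day 0 Dnajc3 read 9.80 on GF WT 2, against 10.24 to 10.37.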

How the results depend on the processing

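At day 0 the count of members called was 0 in the analysis reported and 1 (Dnaja1) with normexp background correction, with the authors' normalized table and with limma's trend and robust options, while 4 passed an unadjusted p under 0.05 with at least 1.5-fold. Over all probes the 12 calls became 27 with normexp, 22 with the authors' table, 22 with a filter on spots well above background, 27 with trend and robust and 555 at the unadjusted threshold with fold, and lay between 8 and 16 when single arrays were left out. The 15 members higher at an unadjusted p under 0.05 became 11 to 16 without single arrays, 8 without the slide of GF WT 6, and 6 when GF Card9-/- 7 was also left out. At day 7 the count over all probes was 0, and 1 without GF WT 1 (0 to 1 over arrays left out), with 987 at the unadjusted threshold with fold. The score difference at day 7 was −0.18 within the 2 slides that hold both genotypes, and −0.09 to 0.03 with single arrays left out (0.02 to 0.06 at day 0). For the difference between days 2 members passed the unadjusted threshold with fold. The cause of these shifts was not tested.

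Whether replicate numbers pair the samples could not be decided from so few arrays. Deviations of same-numbered arrays correlated at −0.02 to 0.38 over 6 pairs at day 0, where own number was highest for numbers 1 and 5 only. At day 7 they correlated at 0.11 for number 4, where own number was highest, and at 0.03 for number 6, where it was not. With the replicate block the members called were 0 at both days, all probes called were 7 at day 0 and 0 at day 7, members higher at an unadjusted p under 0.05 were 8, and the score difference was 0.04 at day 0 and −0.01 at day 7. Of 1256 values of single named members under other settings, 2 came to pass the threshold (Dnaja1 at day 0), and 56 had the other sign without being called. A value moved if it changed by the pooled SD of its gene or more. This held for 14, all at day 7, of which 12 came from the 2 slides that hold both genotypes. That setting was run at day 7 only. Members at an unadjusted p under 0.05 in the analysis reported could not be counted as moved, so these counts do not show that day 0 was stable.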
